A study of Mus musculus with 8 samples.

Results

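The nuclear genes that encode subunits of respiratory complexes II, III, IV and V were followed in MKs cultured with and without MSCs. A gene was included when its symbol in the deposited count table began with Uqcr, Atp5 or Cox followed by a digit from 4 to 8, or was Cyc1 or 1 of the 4 succinate dehydrogenase genes. This gave 44 of the 13387 genes in the table, with 4 in complex II, 9 in complex III, 14 in complex IV and 17 in complex V. Subunits named in another way, such as Ndufa4 and Usmg5, assembly factors and complex I were not members.

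The series holds 8 bulk RNA-Seq libraries from primary C57BL/6 mouse cells. MKs were enriched from bone marrow by CD41, a surface integrin of this lineage, and were cultured alone (4 libraries) or with sorted bone marrow MSCs (4 libraries, cocultures 1 to 4) for 18 hours. The MSCs were negative for CD45, Ter119 and CD31 and positive for CD51 and CD140a, and no transgene, deletion or drug distinguished the groups. By the labels these were MKs after removal of platelets, whereas the study's text speaks of platelets, and several wells were pooled for each library. The labels tie no library to an animal, whereas a legend of the study counts the pooled samples as mice, and p-values measure the spread between these libraries.

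Complexes II, III and IV pass electrons from succinate and reduced ubiquinone to oxygen, and complexes III and IV pump protons across the inner mitochondrial membrane. Complex V, the ATP synthase, lets the protons back through a rotating ring and makes ATP. Complex II is encoded wholly in the nucleus, whereas complexes III, IV and V combine nuclear subunits with a few made from mitochondrial DNA, and some complex IV subunits have isoforms typical of heart, skeletal muscle or testis.

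Totals ran from 4939874 to 12523616 counts per library, and 3 counts were worth 0.24 to 0.61 CPM (counts divided by library size), a floor that covers counting error only. Levels below are CPM after TMM scaling. Coculture 3 stood apart before any comparison. It lacked any count for 1012 genes that all other libraries held with 10 counts or more, while no other library lacked more than 4 in this way, and it had 10735 genes with a count against at least 12406. Fold changes and counts of members are therefore given with and without it.

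The cells in the libraries differed as well. All 12 of 12 neutrophil markers passed the test lower in coculture, with and without coculture 3, with a summed level of 85188 to 87385 CPM in MKs cultured alone and 4536 to 10313 CPM in the cocultures. MSC markers passed higher for 7 of 10 tested (9 of 11 without coculture 3), with sums of 134 to 169 against 1265 to 4165 CPM, but Nt5e of the same list passed lower (log2 fold change -3.66, adjusted p = 0.00289, and -3.31 without coculture 3). Macrophage markers passed higher for 8 of 9 (10 of 10 without coculture 3), with sums of 152 to 228 against 914 to 1357 CPM and Marco at 0 in every library of MKs cultured alone. B cell markers passed lower for 4 of 9, or 6 of 9 without coculture 3 (sums of 886 to 946 against 91.1 to 236 CPM). Of 5 erythroid markers tested, 1 was lower at an unadjusted p under 0.05 and passed in DESeq2, and no edgeR adjusted p passed, whereas 4 of 6 passed lower without coculture 3 (sums of 38.8 to 62.8 against 19.6 to 93.8 CPM). MK and platelet markers were present in both groups, at 2407 to 2667 and 1848 to 2447 CPM, and 1 of 16 passed lower, or 7 of 16 without coculture 3. These values moved with every comparison below, and their part in the results was not tested. In bulk RNA, a change in the share of a cell type and a change in RNA per cell cannot be told apart.

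Genes of complexes II to V were on the whole higher in coculture. Of 43 members tested, 22 rose at an adjusted p of at most 0.05, where 14.3% of the 11722 genes tested did, and 16 rose at least 2-fold, where 13.2% did. No member fell by edgeR, at either cutoff, where 8.75% and 7.31% of all genes did, and only Cox7a2l was lower at an unadjusted p under 0.05, which DESeq2 also passed. The median log2 fold change of the members was 0.80, beside 0.03 over all genes tested. The remaining member, Cox7a1, had too few counts to be tested.

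The size of the rise rested partly on coculture 3. The members took 0.635 to 0.761% of all counts in MKs cultured alone, 0.953 to 1.09% in cocultures 1, 2 and 4, and 1.33% in coculture 3. Without coculture 3, 24 members passed higher, where 29.2% of 12267 genes did, and the median was 0.61. Only 7 of them, 16.3% of the members, remained at 2-fold or more, below the 20.6% of all genes. One member passed lower, where 25.9% of genes did, and it was under 2-fold, where 15.4% passed. In 25 members every coculture exceeded every library of MKs cultured alone, where 19.3% of genes did, and in 1 member every coculture was lower, where 21.1% did.

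The counts also depended on other choices. With a per-library correction for transcript length, 9 members passed higher and 2 reached 2-fold, with a median of 0.15 against -0.10 over all genes. In the form first computed, in which the fitted curves were not centred on each library's median, 6 passed and 5 reached 2-fold, with a median of 0.64 against 0.36. With the centred correction and no coculture 3, 19 passed, 3 reached 2-fold and the median was 0.38. Leaving out replicate 1, 2, 3 or 4 of MKs cultured alone left 2, 5, 4 or 2 members that passed, of which 2, 4, 4 and 2 reached 2-fold, and leaving out coculture 2 left 14 that passed.

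**Figure D1:**
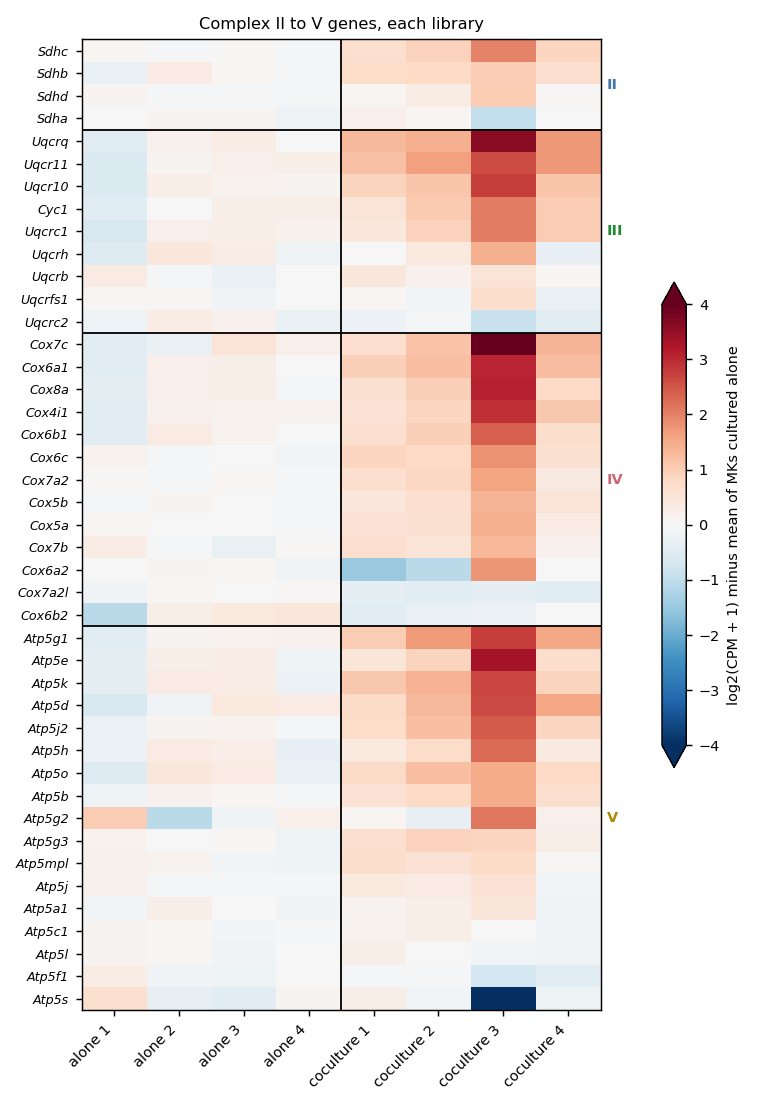
Level of each of the 43 tested members in each library, as log2(CPM + 1) minus the mean of the 4 libraries of MKs cultured alone, grouped by complex (red higher, blue lower). Coculture 3 carries the darkest colours in both directions, for instance Cox7c and Atp5s, and Cox7a2l is pale blue in all 4 cocultures.

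Complex II, succinate dehydrogenase, had the lowest median log2 fold change of the 4 complexes. Its summed level was 787 ± 50.2 CPM in MKs cultured alone and 965 ± 60.4 CPM in coculture (SD, n = 4 each), and 941 ± 44.8 CPM without coculture 3 (n = 3). This median was 0.60, and 0.41 without coculture 3, and 2 of 4 members rose in either fit, 1 of them at least 2-fold with all libraries and none without coculture 3.

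Sdhb, the iron-sulfur subunit, held 95.8, 149, 126 and 112 CPM in MKs cultured alone and 201, 207, 235 and 190.1 CPM in cocultures 1 to 4. The groups did not overlap, and Sdhb rose 1.73-fold (log2 fold change 0.79, SE 0.19, adjusted p = 0.0177), with 0.70 (SE 0.17, adjusted p = 0.00281) without coculture 3. Sdhc, a membrane anchor that helps to bind heme and ubiquinone, held 33.1, 30.1, 32.7 and 30.3 CPM in MKs cultured alone and 51.1, 60.2, 129 and 58.1 CPM in cocultures 1 to 4. It was above MKs cultured alone in each coculture, most so in coculture 3, and rose (log2 fold change 1.24, SE 0.33, adjusted p = 0.0276), and was 0.82 (SE 0.18, adjusted p = 0.000836) without coculture 3.

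Sdha, the flavoprotein that oxidizes succinate, held 394, 425, 425 and 346 CPM in MKs cultured alone and 456, 418, 198 and 399 CPM in cocultures 1 to 4. Coculture 3 was the lowest of all 8 libraries and the other cocultures lay among or just above the libraries of MKs cultured alone, so the groups overlapped (log2 fold change -0.11, SE 0.26, adjusted p = 0.797). Its sign turned to 0.07 without coculture 3. Sdhd, the second anchor, held 258, 232, 227 and 231 CPM in MKs cultured alone and 251, 288, 475 and 243 CPM in cocultures 1 to 4, with coculture 3 alone far above the rest (log2 fold change 0.41, SE 0.24, adjusted p = 0.259), and was 0.12 (SE 0.16, adjusted p = 0.55) without coculture 3. Neither gene passed the test, although Sdha and Sdhb form the catalytic head together.

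In complex III, the cytochrome bc1 complex, 5 of 9 members rose, each at least 2-fold. Without coculture 3 the same 5 passed, but only Uqcrq and Uqcr11 reached 2-fold. The summed level was 1081 ± 52.8 CPM in MKs cultured alone, 1879 ± 789 CPM in coculture and 1485 ± 52.8 CPM in the 3 cocultures without coculture 3, which held 3061 CPM. The median log2 fold change was 1.19, and 0.74 without coculture 3.

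The highest fold changes were those of small accessory subunits. Uqcrq, which sits beside cytochrome b, held 35.8, 56.3, 60.5 and 49.1 CPM in MKs cultured alone and 122, 133, 609.7 and 167 CPM in cocultures 1 to 4. The lowest coculture was above the highest library of MKs cultured alone, and Uqcrq rose 5.11-fold (log2 fold change 2.35, SE 0.55, adjusted p = 0.0151), with 1.45 (SE 0.20, adjusted p = 1.07e-05) without coculture 3. Uqcr11, the smallest subunit, held 40.4, 64.9, 69.1 and 69.8 CPM in MKs cultured alone and 136, 187, 370.1 and 202 CPM in cocultures 1 to 4, again with no overlap (log2 fold change 1.87, SE 0.34, adjusted p = 0.00466), and 1.49 (SE 0.21, adjusted p = 1.4e-05) without coculture 3. Uqcr10, another small membrane subunit, rose as well, with a log2 fold change of 1.68 (SE 0.45, adjusted p = 0.0285), or 0.99 without coculture 3.

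Of the redox subunits, Cyc1, which encodes cytochrome c1, rose with a log2 fold change of 1.26 (SE 0.35, adjusted p = 0.032), or 0.83 without coculture 3. Uqcrfs1, the Rieske iron-sulfur protein, held 142, 143, 125 and 139 CPM in MKs cultured alone and 144, 128, 223 and 112 CPM in cocultures 1 to 4. Coculture 3 was far above the other libraries, and the rest of the groups overlapped (log2 fold change 0.14, SE 0.24, adjusted p = 0.701), and the log2 fold change without it was -0.12.

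Of the 2 core proteins, which line the matrix side of the complex, Uqcrc1 rose, with a log2 fold change of 1.19 (SE 0.37, adjusted p = 0.047), which was 0.74 without coculture 3. Uqcrc2 held 125, 177, 163 and 119 CPM in MKs cultured alone and 122, 138, 76.4 and 105 CPM in cocultures 1 to 4, with overlap and no change that passed (log2 fold change -0.41, SE 0.24, adjusted p = 0.257), or -0.29 without coculture 3, and 25.6% of its 31-base words also occur in another gene. The other accessory subunits, Uqcrb and Uqcrh, had log2 fold changes of 0.30 and 0.48 and adjusted p of 0.299 and 0.427, or 0.21 and -0.03 without coculture 3. Shared words made up 58.2% of the Uqcrb sequence, 16.4% of that of Uqcrh and 19.5% of that of Uqcr11.

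**Figure D2:**
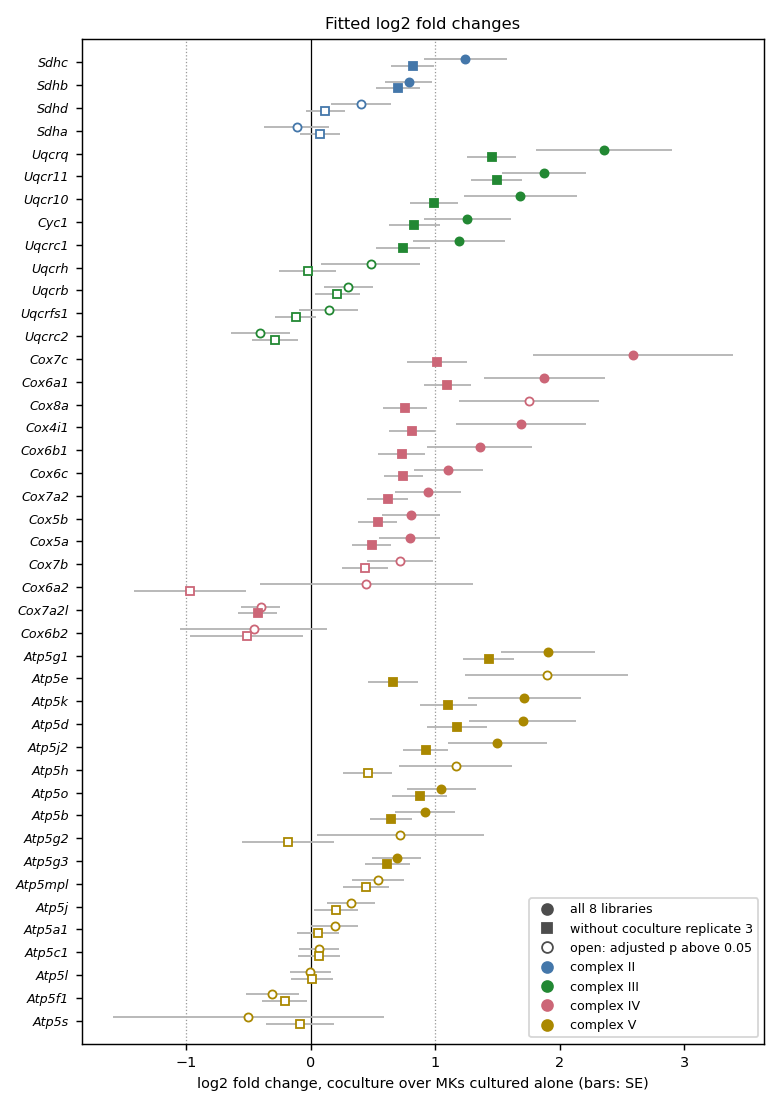
Fitted log2 fold change of each tested member with its SE, from all 8 libraries (circles) and without coculture 3 (squares), with filled symbols at an adjusted p of at most 0.05 and dotted lines at 2-fold. Most complex III and IV squares lie left of their circles, such as Cox7c at 1.01 against 2.59. Uqcrc2, Cox7a2l, Cox6b2, Atp5f1 and Atp5s lie below 0 in both.

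Complex IV, cytochrome c oxidase, had the widest range. Its summed level was 1492 ± 58.6 CPM in MKs cultured alone, 3327 ± 2096 CPM in coculture and 2280 ± 132 CPM without coculture 3, which held 6466 CPM. Of 13 members tested, 8 rose, 5 of them at least 2-fold, and the median log2 fold change was 0.94. Without coculture 3, 9 passed higher, 2 of them at least 2-fold, 1 passed lower and the median was 0.62. All 8 were among the 10 subunits present in most tissues, and none of the tissue isoforms passed.

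Cox7c, a small membrane subunit, held 23.4, 27, 47.8 and 37.6 CPM in MKs cultured alone and 52.3, 72.6, 609.7 and 85.2 CPM in cocultures 1 to 4. Its value in coculture 3 was many times that of any other library, and the groups did not overlap (log2 fold change 2.59, SE 0.80, adjusted p = 0.0474), with 1.01 (SE 0.24, adjusted p = 0.00209) without coculture 3. Cox6a1, the widespread form of subunit VIa, held 60.5, 96.7, 97.9 and 83.1 CPM in MKs cultured alone and 162, 194, 691 and 197 CPM in cocultures 1 to 4. It rose 3.68-fold (log2 fold change 1.88, SE 0.49, adjusted p = 0.0237), with 1.10 (SE 0.19, adjusted p = 0.000105) without coculture 3. Words shared with other genes made up 29.9% of the Cox7c sequence and 23.8% of that of Cox6a1.

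Cox4i1, the widespread form of the largest nuclear subunit, held 112, 167, 164 and 163 CPM in MKs cultured alone and 225, 272, 1145 and 316 CPM in cocultures 1 to 4. All cocultures were above MKs cultured alone (log2 fold change 1.69, SE 0.52, adjusted p = 0.0458), and 0.81 (SE 0.19, adjusted p = 0.00142) without coculture 3. Cox6b1, which faces the intermembrane space where cytochrome c docks, held 91.6, 156, 138 and 123 CPM in MKs cultured alone and 197, 245, 659.8 and 202 CPM in cocultures 1 to 4, also without overlap (log2 fold change 1.36, SE 0.42, adjusted p = 0.0468), and 0.73 (SE 0.19, adjusted p = 0.00364) without coculture 3. These values put coculture 3 far above the other 3 cocultures. Shared words made up 16.9% of the Cox4i1 sequence.

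Cox8a, a short membrane subunit, held 76.6, 113, 115 and 94.2 CPM in MKs cultured alone and 151, 192, 833 and 171 CPM in cocultures 1 to 4. The groups did not overlap, but with all libraries the test was just missed (log2 fold change 1.75, SE 0.56, adjusted p = 0.0531), and it passed at 0.76 (SE 0.18, adjusted p = 0.00202) without coculture 3. Cox7b, needed for assembly of the complex, held 245, 195, 162 and 209 CPM in MKs cultured alone and 318, 289, 501 and 226 CPM in cocultures 1 to 4, with an overlap between its highest library of MKs cultured alone and coculture 4 (log2 fold change 0.72, SE 0.27, adjusted p = 0.0858), and was 0.44 (SE 0.18, adjusted p = 0.0543) without coculture 3. Cox5a, Cox5b and Cox6c rose, with log2 fold changes of 0.79, 0.80 and 1.11 and adjusted p of 0.0489, 0.0372 and 0.0211, or 0.49, 0.54 and 0.74 without coculture 3. Shared words made up 47.2, 32.7 and 18.8% of their sequences, so their counts are uncertain.

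Cox7a2 and Cox7a2l are related in sequence, but Cox7a2 is a subunit of the enzyme and Cox7a2l joins complexes III and IV into supercomplexes. Cox7a2 held 119.6, 113, 122 and 112 CPM in MKs cultured alone and 187, 207, 352 and 151 CPM in cocultures 1 to 4. It rose 1.92-fold without overlap (log2 fold change 0.94, SE 0.27, adjusted p = 0.0335), with 0.62 (SE 0.16, adjusted p = 0.00441) without coculture 3. Cox7a2l held 127, 149, 143 and 144 CPM in MKs cultured alone and 109, 105, 108 and 104 CPM in cocultures 1 to 4. It was lower in every coculture, including coculture 3 (log2 fold change -0.40, SE 0.16, adjusted p = 0.0967), and passed at -0.43 (SE 0.16, adjusted p = 0.0298) without coculture 3. It was the 1 member with all cocultures below all libraries of MKs cultured alone. Words shared with other genes made up 21.1% of the Cox7a2l sequence, so its counts are uncertain.

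The tissue isoforms were scarce. Cox6a2, the heart and muscle form, held 5.52, 5.98, 5.77 and 4.88 CPM in MKs cultured alone and 1.33, 2.08, 21.2 and 5.55 CPM in cocultures 1 to 4. Cocultures 1 and 2 were the lowest libraries and coculture 3 the highest (log2 fold change 0.45, SE 0.85, adjusted p = 0.747), and the log2 fold change without coculture 3 was -0.97 (SE 0.45, adjusted p = 0.0802). Cox6b2, the testis form, held 1.32, 4.74, 5.32 and 5.69 CPM in MKs cultured alone and 2.56, 3, 3.14 and 3.82 CPM in cocultures 1 to 4, with overlap (log2 fold change -0.46, SE 0.59, adjusted p = 0.62), and was -0.51 (SE 0.45, adjusted p = 0.351) without coculture 3. Cox7a1, the heart and muscle form of subunit VIIa, had 0, 1, 2 and 2 counts in MKs cultured alone and 7, 10, 83 and 5 counts in the cocultures. Every library of MKs cultured alone was at or under the floor of 3 counts, so no fold is given. Cox4i2, Cox7b2, Cox8b and Cox8c were not analysed here.

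The share of each isoform in its pair or group was computed from counts per kb of transcript. Cox6a2 made up 5.37 ± 1.17% of Cox6a1 and Cox6a2 in MKs cultured alone and 1.60 ± 0.945% in coculture (SD, n = 4 each), or 1.30% without coculture 3. The groups did not overlap in this share (exact two-sided permutation test, p = 0.0286, adjusted p = 0.0571 over 6 shares). The level of Cox6a2 itself overlapped between groups (log2 fold change 0.45, or -0.97 without coculture 3). Cox6a1, the other part of the sum, rose (1.88, or 1.10 without coculture 3). Cox7a1 made up 0.211 ± 0.185% of Cox7a1 and Cox7a2 and then 1.47 ± 1.41%, or 0.774% without coculture 3 (exact p = 0.0286, adjusted p = 0.0571). Cox6b2 made up 3.48 ± 1.43% and 1.35 ± 0.633%, or 1.62% without coculture 3 (exact p = 0.0571, adjusted p = 0.0857). With 4 libraries a group no p below 0.0286 is possible, or below 0.0571 without 1 library, and no share passed after adjustment.

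**Figure D3:**
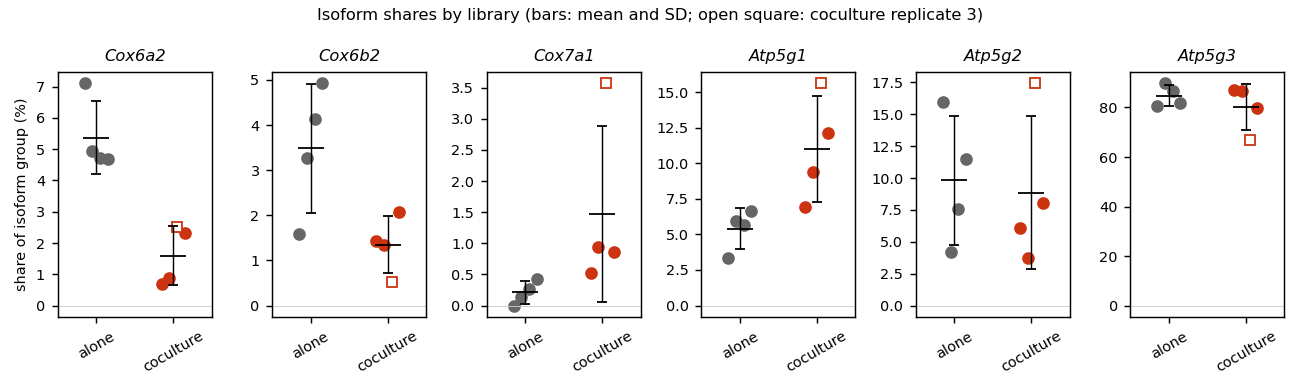
Share of each isoform in its isoform group by library, in percent of counts per kb, with mean and SD (n = 4) and coculture 3 as an open square. The Cox6a2 share is lower in all 4 cocultures (0.685 to 2.52%) than in MKs cultured alone (4.70 to 7.12%), and the Atp5g2 shares overlap.

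Complex V was the most abundant, at 3601 ± 143 CPM in MKs cultured alone, 5139 ± 1242 CPM in coculture and 4550 ± 487 CPM without coculture 3. Of 17 members, 7 rose, 5 of them at least 2-fold, with a median log2 fold change of 0.72. Without coculture 3, 8 passed higher, 3 of them at least 2-fold, and the median was 0.46.

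In the catalytic head, Atp5b, which carries the catalytic sites, rose with a log2 fold change of 0.92 (SE 0.24, adjusted p = 0.0257), and Atp5d, a subunit of the central stalk, with 1.70 (SE 0.43, adjusted p = 0.0209), or 0.65 and 1.18 without coculture 3. Atp5e, the smallest stalk subunit, held 30.2, 45.9, 48.6 and 35 CPM in MKs cultured alone and 54.7, 73.3, 401 and 65 CPM in cocultures 1 to 4. The groups did not overlap, but the test was missed with coculture 3 included (log2 fold change 1.90, SE 0.66, adjusted p = 0.0689) and passed at 0.66 (SE 0.20, adjusted p = 0.0113) without coculture 3. Atp5a1, the partner of Atp5b in the head, and Atp5c1, the rotor shaft, had log2 fold changes of 0.19 and 0.07 and adjusted p of 0.511 and 0.811, or 0.06 and 0.07 without coculture 3.

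The peripheral stalk holds the head still while the rotor turns. Atp5o, which ties the stalk to the head, rose with a log2 fold change of 1.05 (SE 0.28, adjusted p = 0.0268), or 0.88 without coculture 3. Atp5f1, the long stalk subunit, held 774, 571, 549 and 638 CPM in MKs cultured alone and 599, 591, 382 and 473 CPM in cocultures 1 to 4, with the lowest values in cocultures 3 and 4 and overlap between groups (log2 fold change -0.31, SE 0.21, adjusted p = 0.328), and was -0.21 (SE 0.18, adjusted p = 0.339) without coculture 3. Atp5h and Atp5j had log2 fold changes of 1.16 and 0.32 and adjusted p of 0.0983 and 0.258, or 0.46 and 0.20 without coculture 3. Words shared with other genes made up 46.7% of the Atp5f1 sequence, 48.0% of that of Atp5o and 59.4% of that of Atp5h, so their counts are uncertain.

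In the membrane part, Atp5j2 and Atp5k rose, with log2 fold changes of 1.499 and 1.71 and adjusted p of 0.0265 and 0.0263, or 0.92 and 1.11 without coculture 3. Atp5l and Atp5mpl had log2 fold changes of -0.002 and 0.54 and adjusted p of 0.994 and 0.0917, or 0.01 and 0.45 without coculture 3, and 85.4% of the words of Atp5l were shared. Atp5s, a coupling factor, held 33.1, 16.4, 15.1 and 22.5 CPM in MKs cultured alone and 24.6, 19, 0 and 17.7 CPM in cocultures 1 to 4. It was missing from coculture 3 only, where 3 counts would be 0.24 CPM, and the other cocultures lay within the range of MKs cultured alone (log2 fold change -0.50, SE 1.09, adjusted p = 0.781, a fit that depends on how the 0 is treated), with -0.09 without coculture 3.

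The rotor ring is built from a c subunit that 3 genes encode with the same mature protein and different import sequences. Their RefSeq promoters (GRCm38.p6, 250 bases before the annotated start, minus strand, 5′ to 3′) are shown because the genes share a mature protein and differ in these regions, with the NRF1 core GCGCATGC in capitals on either strand. They lie at chr11:96075632-96075881 for Atp5g1, chr15:102671048-102671297 for Atp5g2 and chr2:73911327-73911576 for Atp5g3. The Atp5g2 window lies inside the extent of that gene in GENCODE vM21, and that of Atp5g1 overlaps the 5′ end of its gene.
Atp5g1: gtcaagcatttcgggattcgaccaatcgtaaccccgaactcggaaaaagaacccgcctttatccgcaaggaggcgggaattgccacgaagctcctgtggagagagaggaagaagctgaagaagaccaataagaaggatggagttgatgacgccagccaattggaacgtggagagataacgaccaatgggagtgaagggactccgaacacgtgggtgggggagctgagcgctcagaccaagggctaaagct
Atp5g2: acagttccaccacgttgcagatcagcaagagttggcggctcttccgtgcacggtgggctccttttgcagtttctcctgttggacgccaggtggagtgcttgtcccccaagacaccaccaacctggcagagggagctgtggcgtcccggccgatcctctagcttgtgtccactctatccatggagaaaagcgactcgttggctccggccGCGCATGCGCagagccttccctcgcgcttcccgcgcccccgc
Atp5g3: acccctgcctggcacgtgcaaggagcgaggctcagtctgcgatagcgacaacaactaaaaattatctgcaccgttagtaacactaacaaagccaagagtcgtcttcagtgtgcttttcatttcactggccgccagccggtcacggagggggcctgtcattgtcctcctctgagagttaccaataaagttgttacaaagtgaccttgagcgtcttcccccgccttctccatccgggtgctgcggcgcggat
The capitals in Atp5g2 are 2 overlapping matches on opposite strands, since the whole stretch in capitals is its own reverse complement.

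Atp5g1 held 36.9, 53.5, 55.7 and 56.8 CPM in MKs cultured alone and 102, 167, 343 and 149 CPM in cocultures 1 to 4. It rose 3.75-fold with no overlap (log2 fold change 1.91, SE 0.37, adjusted p = 0.00695), and 1.43 (SE 0.20, adjusted p = 1.86e-05) without coculture 3. Of the 31-base words of Atp5g1, 14.8% occur in other genes. For 21 other genes there were at least 100 matches each, counted over all their transcripts, so its counts are partly uncertain. Atp5g3 held 240.3, 218, 231 and 187 CPM in MKs cultured alone and 343, 413, 394 and 264 CPM in cocultures 1 to 4. It rose 1.61-fold (log2 fold change 0.69, SE 0.19, adjusted p = 0.033), with 0.61 (SE 0.18, adjusted p = 0.00878) without coculture 3.

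Atp5g2 held 38.8, 8.35, 16.4 and 21.5 CPM in MKs cultured alone and 19.6, 14.6, 83.8 and 21.7 CPM in cocultures 1 to 4. The highest value was in coculture 3, and the others overlapped (log2 fold change 0.72, SE 0.67, adjusted p = 0.482), with a log2 fold change of -0.18 without coculture 3. As 87.7% of its 31-base words occur in other genes, its counts are uncertain. Per kb, Atp5g3 was the main form in both groups, at 84.8 ± 4.30% and 80.1 ± 9.42% (exact permutation test, p = 0.457, adjusted p = 0.549), but at 84.5% without coculture 3, so the lower mean came from that library. Atp5g1 made up 5.38 ± 1.44% and 11.03 ± 3.72%, or 9.49% without coculture 3 (exact p = 0.0286, adjusted p = 0.0571), and Atp5g2 9.82 ± 5.08% and 8.84 ± 6.00%, or 5.97% without coculture 3 (exact p = 0.8, adjusted p = 0.8). The Atp5g1 share depends on its length of 2675.5 bases, the median of 4 transcripts.

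Partners within a complex were set side by side per kb. These pairs were picked after their values were seen, so they have no test. The ratio of Atp5b to Atp5a1 was 2.39 to 2.71 in MKs cultured alone, 3.47 to 4.43 in cocultures 1, 2 and 4 and 5.16 in coculture 3. Uqcrc1 to Uqcrc2 was 0.531 to 0.976, then 1.14 to 1.98, then 5.60. The ratio of Sdhb to Sdha was 0.618 to 0.891, then 1.12 to 1.26, then 3.02. For Cox7a2 to Cox7a2l it was 1.27 to 1.58, then 2.42 to 3.29, then 5.47. For Uqcrq to Uqcrb it was 0.0794 to 0.203, then 0.252 to 0.440, then 1.21. No coculture overlapped MKs cultured alone in these ratios. Each sets a member that passed higher over a partner that did not, so this separation was built into the choice and is no further result.

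**Figure D4:**
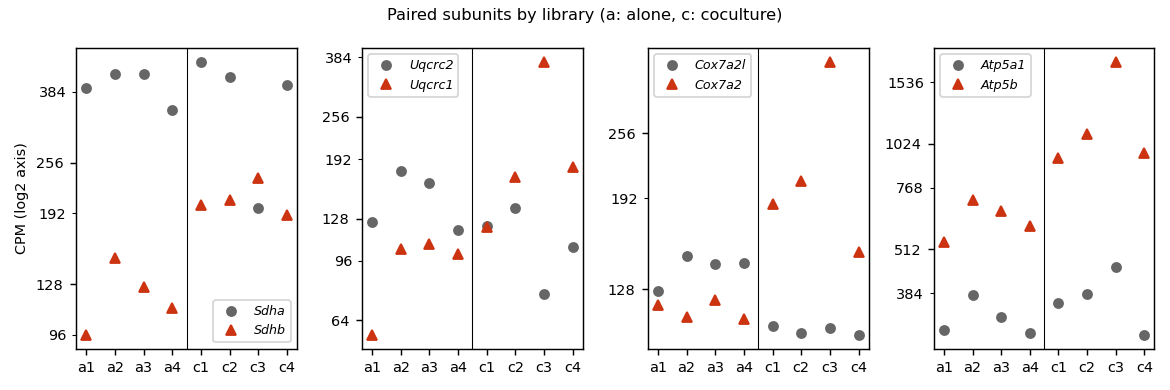
CPM of paired subunits in each library (a, MKs cultured alone, and c, coculture, replicates 1 to 4), on a log2 axis. Uqcrc1 is at 373 CPM and Uqcrc2 at 76.4 CPM in coculture 3, and Cox7a2 passes above Cox7a2l in all 4 cocultures.

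GC content and length of the transcripts were compared with the fold changes. Among 16 members with transcripts under 50% GC, 3 rose and the median log2 fold change was 0.22. Between 50 and 55% GC, 12 of 17 rose (median 1.05), and at 55% or more 7 of 10 rose (median 1.69). Over all genes the same classes had 9.29%, 16.6% and 22.1% that rose. Without coculture 3, 3, 13 and 8 members of these classes passed higher, with medians of 0.07, 0.66 and 0.82, where 22.0%, 31.8% and 41.2% of all genes in them did. Across the 43 members the Spearman correlation of log2 fold change was 0.526 with GC content and -0.343 with length, and 0.45 and -0.212 without coculture 3. Over 11714 genes it was 0.282 and -0.142. Genes share the same 8 libraries and are not independent, and the part of these properties in the results was not tested.

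**Figure D5:**
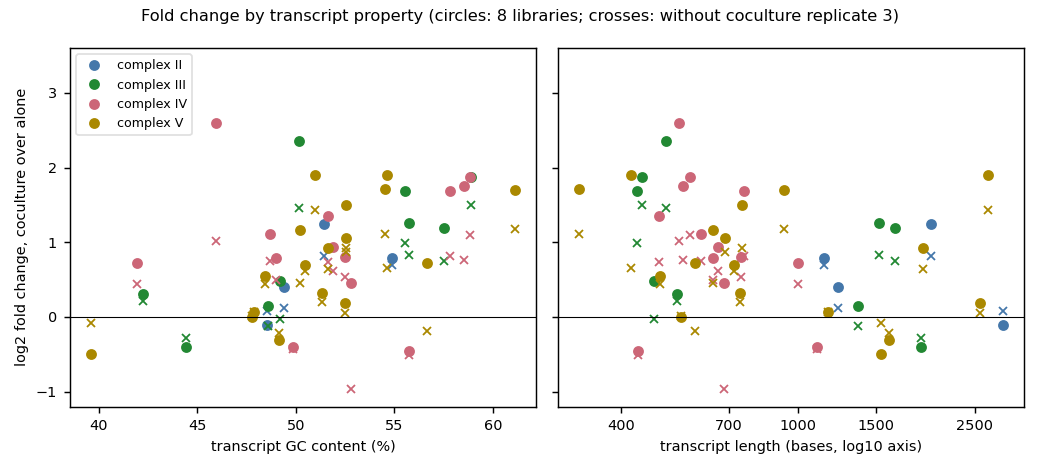
Fitted log2 fold change of each tested member against the GC content (%) and the length (bases, log10 axis) of its transcript, from all 8 libraries (circles) and without coculture 3 (crosses). Members under 50% GC center on 0.22 and those at 55% or more on 1.69, with Cox7c an exception at 46.0% GC and 2.59.

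RefSeq promoters of 300 bases were found for 34 of 44 members and for 27025 genes in all. A gene counted when any of its promoters held the motif on either strand. The NRF1 core GCGCATGC lay in 7 of the 34 (20.6%) and in 3.05% of the 27025 genes. These include genes that were not tested here, so the 2 sets are unlike and the contrast was not tested. The ETS core CCGGAAG lay in 12 (35.3%) against 9.93%, and the YY1 core AAGATGGC in 3 (8.82%) against 3.19%. The NRF1 core was in 5 of 17 members that rose and 2 of 16 tested members that did not pass, and the ETS core in 5 and 7. A match describes letters in this window, not binding.

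Other genes of the pathway were taken from hand-written lists. Of 39 assembly factors tested, 3 rose in edgeR, a smaller share than the 14.3% of all genes. DESeq2 passed 9 of the 39 higher on the same libraries, where it called 1857 of 11722 genes higher at the stricter 2-fold cutoff. The small share therefore depends on the fit. Without coculture 3, 8 passed higher in edgeR, again a smaller share than the 29.2% of all genes, and 1 lower, where 25.9% did. The 3 were Uqcc2, which helps to assemble complex III (log2 fold change 2.496, SE 0.52, adjusted p = 0.0095), Higd1a (1.38, SE 0.41, adjusted p = 0.0402) and Tmem70, needed for complex V (0.87, SE 0.20, adjusted p = 0.0156). A further list of 17 genes held electron carriers, ubiquinone synthesis genes, and Ndufa4, Usmg5 and Atpif1, which are neither. Of these 17, Coq3 and Coq7 rose. Without coculture 3, Ndufa4, Coq2, Coq3, Coq5 and Coq7 passed higher and Coq8a lower. The counts higher are near the 14.3% and 29.2% of all genes that passed higher in these fits. Without coculture 3, 25.9% of all genes passed lower.

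The 6 subunits of complexes III to V made from mitochondrial DNA were tested in the same fit. None passed in edgeR, none had an unadjusted p under 0.05 and none passed in DESeq2, with a median log2 fold change of 0.002. Without coculture 3, only mt-Co1 of the 6, a catalytic subunit of complex IV, passed lower (-0.74, SE 0.29, adjusted p = 0.0406). In that fit 25.9% of all genes passed lower, so this count does not set the 6 apart. Of 12 regulators of respiratory genes, Hif1a rose (0.95, SE 0.22, adjusted p = 0.0157), and Gabpb1 and Gabpb2, partners of an ETS factor, fell by 1.27 and 1.44 on the log2 scale (adjusted p = 0.00529 and 0.0424). Without coculture 3, Nrf1 and Yy1 passed lower as well, at -0.90 and -0.81 (adjusted p = 0.000514 and 0.00124), and Pprc1 and Esrra passed higher, at 0.71 and 0.95 (adjusted p = 0.0152 and 0.0386). In total 3 of 12 regulators passed higher and 4 lower in that fit, where 29.2% and 25.9% of all genes did. With all libraries 1 passed higher and 2 lower, where 14.3% and 8.75% of all genes did. With so few genes, these counts do not set the regulators apart from all genes.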

How the data were processed

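Bulk RNA-Seq counts of 8 libraries were analysed, 4 per group, grouped and numbered as the labels give them. The authors deposited raw whole-number counts per gene, made per their methods with fastp and kallisto on the mm10 transcriptome. Submitters' processing notes also name DESeq2. Versions, rounding and strand use are not given in the sources used here, so overlapping, antisense and near-identical genes are uncertain.

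Counts were tested with edgeR 4.0.16 (with limma 3.58.1 in R 4.3.3), by the quasi-likelihood test in its robust form after filterByExpr and TMM scaling, without a covariate, over all genes, with Benjamini-Hochberg adjustment. A gene passed at an adjusted p of at most 0.05. The 2-fold calls also needed a mean of at least 1 CPM in 1 group. A batch in the authors' model is not named in the labels and was not fitted. Depth and its floor of 3 counts are given with the results, and reads carry no molecular identifiers. Isoform shares were tested with exact permutation tests (Python 3.11.15, scipy 1.17.1). Transcript lengths, GC content and shared 31-base words were computed from GENCODE vM21, annotated on GRCm38 (mm10), in which 13374 of 13387 symbols and all 44 members had a length.

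Members and lists were chosen with earlier results of these data known. Isoforms, and the 2 members with the highest and the 2 with the lowest fold change in each complex, were described in every library. Other members were summarised, and the partner ratios were chosen after their values were seen. Alternatives were DESeq2 1.42.0, other scalings and filters, the replicate block, corrections for length or GC content by a per-library loess curve (span 0.5), and each library left out in turn. The length curves were first run uncentred. Those curves also rescaled whole libraries, and after their values had been seen each curve was centred on its library's median. Both versions are reported. The GC correction, and length correction without coculture 3, were also added after seeing the data. The labels do not say whether the replicate numbers pair the samples. Same-numbered libraries correlated at 0.369, 0.0198, 0.150 and 0.0280 in their deviations from group means, and differently numbered ones at -0.282 to 0.099. These values do not settle the pairing, so the replicate block was kept as an alternative only. On simulated counts with 4-fold changes, 189 of 196 changed genes among 11652 tested were called, with 11 others, and without coculture 3 185 of 197 among 11648, with 11 others. The simulated spread between libraries was capped, and all libraries were drawn from a common mean profile, so none was like coculture 3. The planted changes were also larger than the members' median. These figures check that the code runs as meant and do not give error rates for the real counts.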

Additional observations from a re-analysis of the deposited data

Results flagged for a closer look

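A library was marked when its gap to the nearest of its group of 4 exceeded Dixon's 95% limit. Chance marks about 1 in 20 groups, or 3.5 of the 70 examined, and 14 were marked, 8 of them in coculture 3. In coculture 3, log2(CPM + 1) stood apart for Atp5e (8.65), Cox6a1 (9.44) and Cox8a (9.70) above the other cocultures, and for Sdha (7.64) and Atp5s (0) below them. The same library stood apart in the summed level of complex III (3061 CPM), the summed level of complex IV (6466 CPM) and the Cox7a1 share (3.58%). In replicate 1 of MKs cultured alone, log2(CPM + 1) was low for Atp5g1 (5.24), Cox4i1 (6.82), Cox6b2 (1.22) and Uqcr11 (5.37) and high for Sdhd (8.02), and the Cox6a2 share was high (7.12%).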

How the results depend on the processing

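Of 43 members, 16 were called at 2-fold and 22 passed. With the replicate block these were 10 and 13. Length correction gave 2 and 9, the same plus replicate block gave 2 and 8, and with length correction but no coculture 3 they were 3 and 19, with 1 called lower. The uncentred curves, computed first, gave 5 and 6 for length, 3 and 3 for length with the replicate block, and 3 and 3 for GC content, where the centred GC correction gave 12 and 21. Centring was chosen after these values had been seen, and it moved the median over all genes from 0.36 to -0.10 for length and from 0.44 to 0.02 for GC content. With each library left out, 2 to 20 were called and 2 to 24 passed. The members' median of 0.80 became 0.15 with length correction, 0.13 with the replicate block added, 0.38 with no coculture 3, and 1.34 with the uncentred GC curves, and ran from 0.61 to 1.003 with libraries left out. Scaling to MK and platelet markers moved the median over all genes to 0.33, with 24 called and 28 passed. Signs of log2 fold changes turned for Atp5g2 (-0.54 length, -0.085 GC content, -0.18 to 1.17 with libraries left out), Cox6a2 (-0.40 replicate block, -0.94 length, -0.13 uncentred length, -0.97 to 0.81 with libraries left out), Sdha (0.33 uncentred length, 0.295 uncentred GC content, -0.23 to 0.074 with libraries left out), Sdhd (-0.15 length) and Uqcrfs1 (-0.34 length, -0.12 to 0.31 with libraries left out), the leave-out turns being those without coculture 3. With the uncentred GC curves they also turned for Atp5f1 (0.15), Cox7a2l (0.10) and Uqcrc2 (0.36). The Atp5g2 share difference turned to 1.07 without replicate 1 of MKs cultured alone and to 0.71 without coculture 2, in a range of -3.85 to 1.07 with libraries left out. Of the single-gene values, 266 kept side and sign, 68 lost the threshold, 10 gained it and 16 turned. The causes were not tested. Depth limits Cox7a1, Cox6a2 and Cox6b2.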
